A study of Homo sapiens with 9 samples.

Results

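The 137 protein-coding genes described here stood apart in LNCaP cells labelled as a UGT2B28 knockdown and were shifted back in the direction of control once UGT2B28 was overexpressed in them. LNCaP is an established human prostate cancer cell line, epithelial and responsive to androgens. UGT2B28 belongs to the UDP-glucuronosyltransferases, enzymes that attach glucuronic acid to steroids, androgens among them, and so ready them for export. A gene was a member when its mean in knockdown was at least 1.5-fold above, or at least 1.5-fold below, both other group means, when no knockdown library overlapped a library of the other groups, and when the highest group mean reached 3 CPM, the read count scaled to its library's total. Mitochondrially encoded genes, histone genes, proteasome (PSM) and ZNF genes, DHX58 and ACOX2 were left out by name; 12 genes met the values but fell to that exclusion. Of 60880 gene rows, 19871 were protein-coding and 10713 of those could have been members; 38 members were higher in knockdown and 99 were lower. All 137 passed the filter on low counts. Over all 18389 genes tested, 10.1% were called in rescue against knockdown (5.2% higher, 4.88% lower) and 32.1% in knockdown against control (16.5% higher, 15.6% lower). The rule read both of these differences. The members' values for them are therefore a description with no test, and nothing about the members is read from those shares. For the members, only rescue against control was tested.

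There were 3 groups of 3 libraries: rescue (KD4OE), in which UGT2B28 was overexpressed in knockdown cells; knockdown (KD4), 1 line; and control (NT). All were LNCaP, kept in medium with 10% fetal bovine serum, at the 24 h time point. The labels name puromycin for selecting knockdown cells and G418 for selecting rescue cells, and name no selection for control, so an effect of selection, or of the derived line, cannot be told apart from that of UGT2B28. Whether the replicates were separate cultures is not stated, so a p-value speaks of differences among libraries that may be technical repeats.

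The targeted gene, UGT2B28 (ENSG00000135226.17_3), reached 1124, 1554 and 1857 counts in rescue libraries, against 17, 8 and 1 in knockdown and 25, 4 and 10 in control. It averaged 62.4 ± 7.44 CPM in rescue, 0.339 ± 0.303 in knockdown and 0.535 ± 0.394 in control (SD, n = 3 each). The knockdown and control libraries overlapped, so a lower level in knockdown was not detectable at this depth, and the rescue level lay far above both. Gene counts summed to 20300744 to 26459528 per library. Library pairs correlated at 0.9886 to 0.9916 within groups (Pearson's r of log2 values across genes, which are not independent replicates), at 0.9845 to 0.9861 between rescue and knockdown, at 0.9645 to 0.9718 between knockdown and control, and at 0.9598 to 0.966 between rescue and control. All 10 luminal prostate markers examined were present, and their summed level was 9148 to 10100 CPM in rescue, 9019 to 9399 CPM in knockdown and 4184 to 4386 CPM in control. KLK2 and KLK3, which encode secreted kallikreins, were higher in rescue and knockdown than in control (KLK3 averaged 4410 CPM in rescue, 3692 CPM in knockdown and 1443 CPM in control), whereas the keratin KRT8 averaged 873 CPM in rescue, 1046 CPM in knockdown and 1024 CPM in control. The 6 basal prostate markers summed to 11.3 to 14.7 CPM in rescue, 10.4 to 14.8 CPM in knockdown and 5.38 to 7.35 CPM in control. Of the markers of fibroblasts, endothelium and immune cells, PTPRC and CD3E were at 0 in every library, and the summed level of the 11 in the tables was 67.2 to 78.0 CPM in rescue, 52.4 to 61.4 CPM in knockdown and 68.9 to 79.9 CPM in control. The part of these markers in the members' levels was not tested, and in bulk RNA a change in the make-up of the cells and a change in RNA per cell cannot be told apart.

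A rescue experiment puts the depleted gene back, and a transcript that follows the gene is then watched for a return to its starting level. Here UGT2B28 RNA was not detectably lower in knockdown than in control, and in rescue it lay far above control. Return therefore describes only the members' own levels. Return can be partial, full or go past control, and a member selected for differing between knockdown and rescue may do any of these. The members were taken up by the role of their product, and roles were assigned after the members were known.

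Read against control, the word returned held for part of the members. In rescue, 72 of 137 members (52.6%) were still called different from control (edgeR's quasi-likelihood test, Benjamini-Hochberg adjusted p under 0.05). Over all 18389 genes tested 37.8% were called, and over the 10713 protein-coding genes at the same minimum level 48.9% were, so the members' share was near the background. Of the 72, 65 lay on the knockdown side of control: 20 of the 38 higher members (52.6%) remained above control and 45 of the 99 lower members (45.5%) remained below it; among the 10713 genes 23.9% were called higher and 25.0% lower. The side is no separate finding, because both differences are measured from the same control libraries. A further 7 members lay past control, and 65 were not called, with differences of at most 0.68 on the log2 scale and a median SE of 0.21. Rescue and control libraries did not overlap for 80 members (58.4%), against 58.2% of the 10713 genes.

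The distance covered, which is the rescue minus knockdown difference as a share of the control minus knockdown difference in mean CPM, had a median of 66.5%. It was 70.6% in the higher members and 64.2% in the lower ones. It was less than 50% in 41 members and more than 100% in 33. The lowest share was that of GSTA1, at 5.47%, and the highest that of CYP2E1, at 266%. Library by library, the median higher member lay 0.59, 0.52 and 0.48 above the control mean in rescue and 1.36, 1.25 and 1.26 above it in knockdown (log2(CPM + 0.5)). The median lower member lay at −0.25, −0.43 and −0.26 in rescue and −1.12, −1.18 and −1.16 in knockdown. The 3 libraries of a group lay close together in these medians, and the rescue libraries stood between the other groups. The rule fixed in advance that knockdown lay at the extreme and that every distance was positive. These medians and distances are therefore a description of selected genes.

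**Figure D1:**
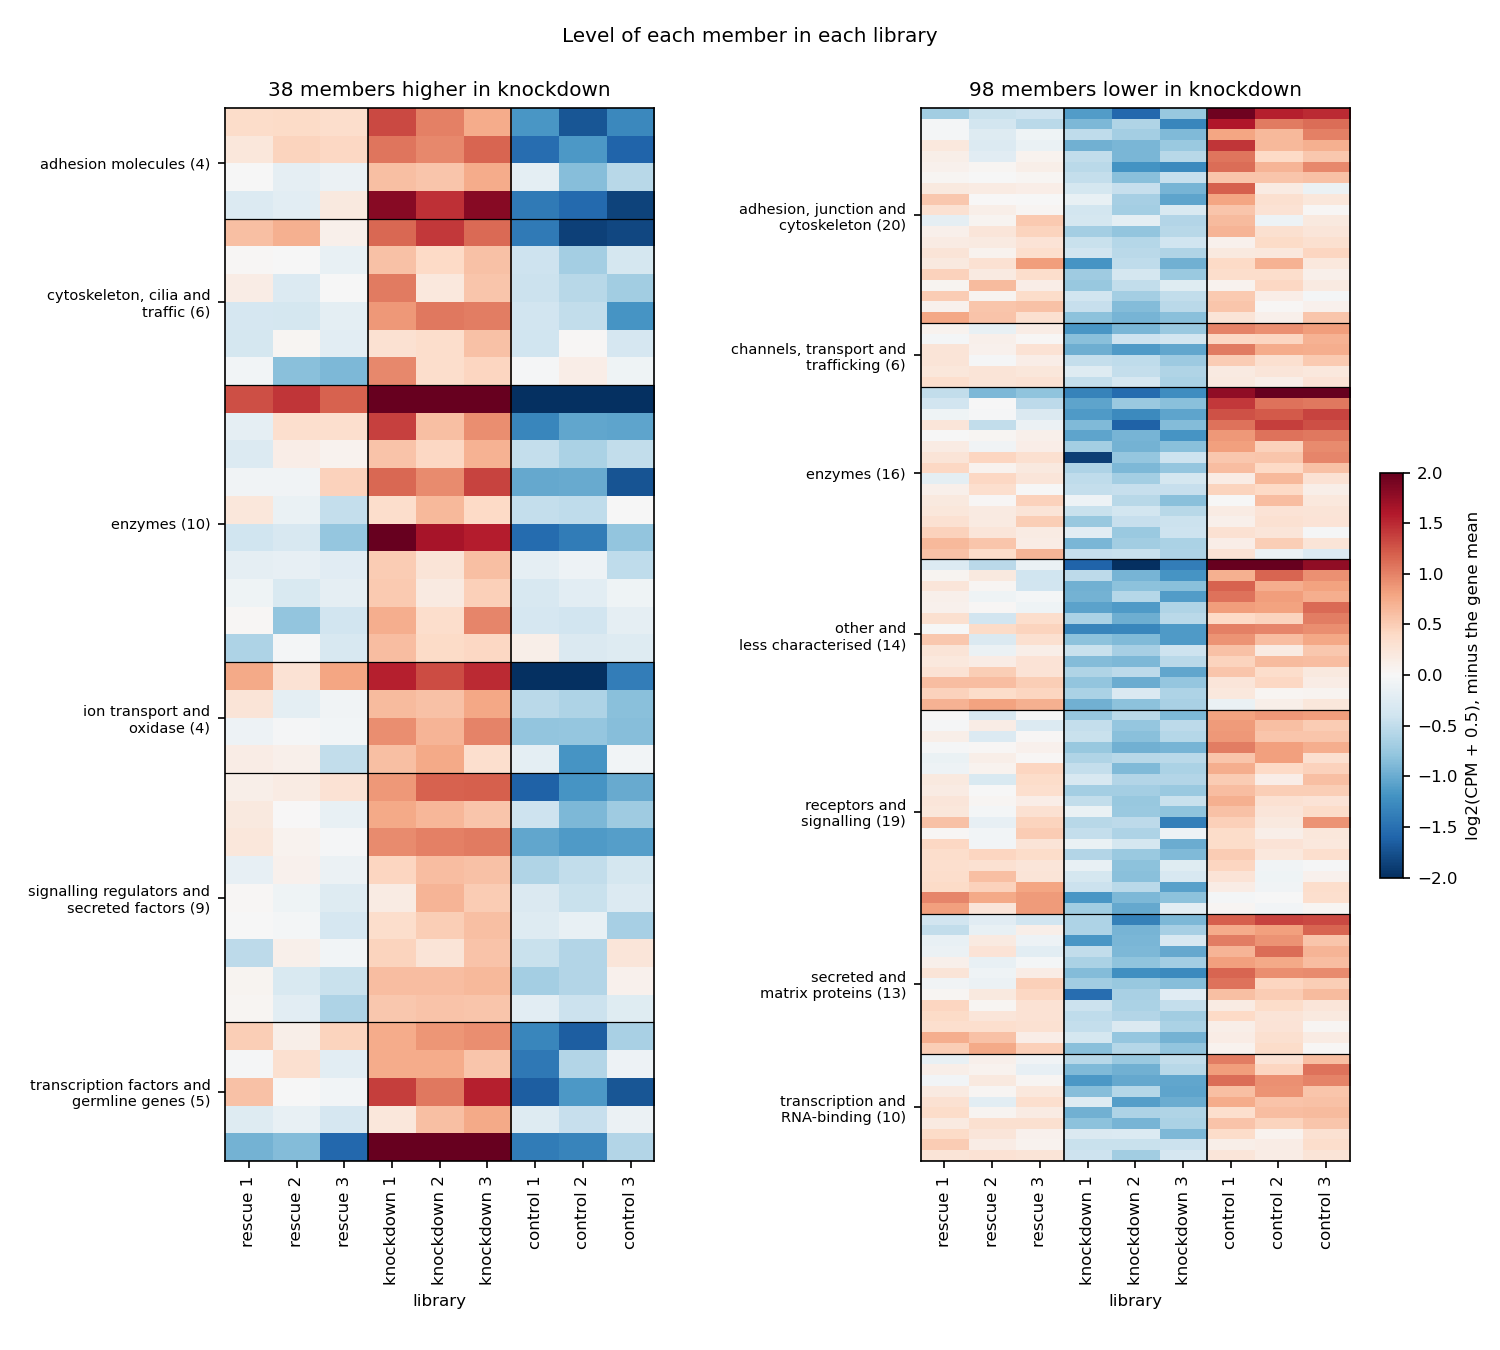
Level of 136 members in each of the 9 libraries, as log2(CPM + 0.5) minus the gene's mean over all libraries, in colour from blue (low) to red (high). Rows are genes, grouped by role with their number and ordered by the distance covered within a role, and columns are libraries. Knockdown columns are uniform in direction by the selection, while the rescue columns run from near knockdown to near or past control; 1 Y-linked member is left out.

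**Figure D2:**
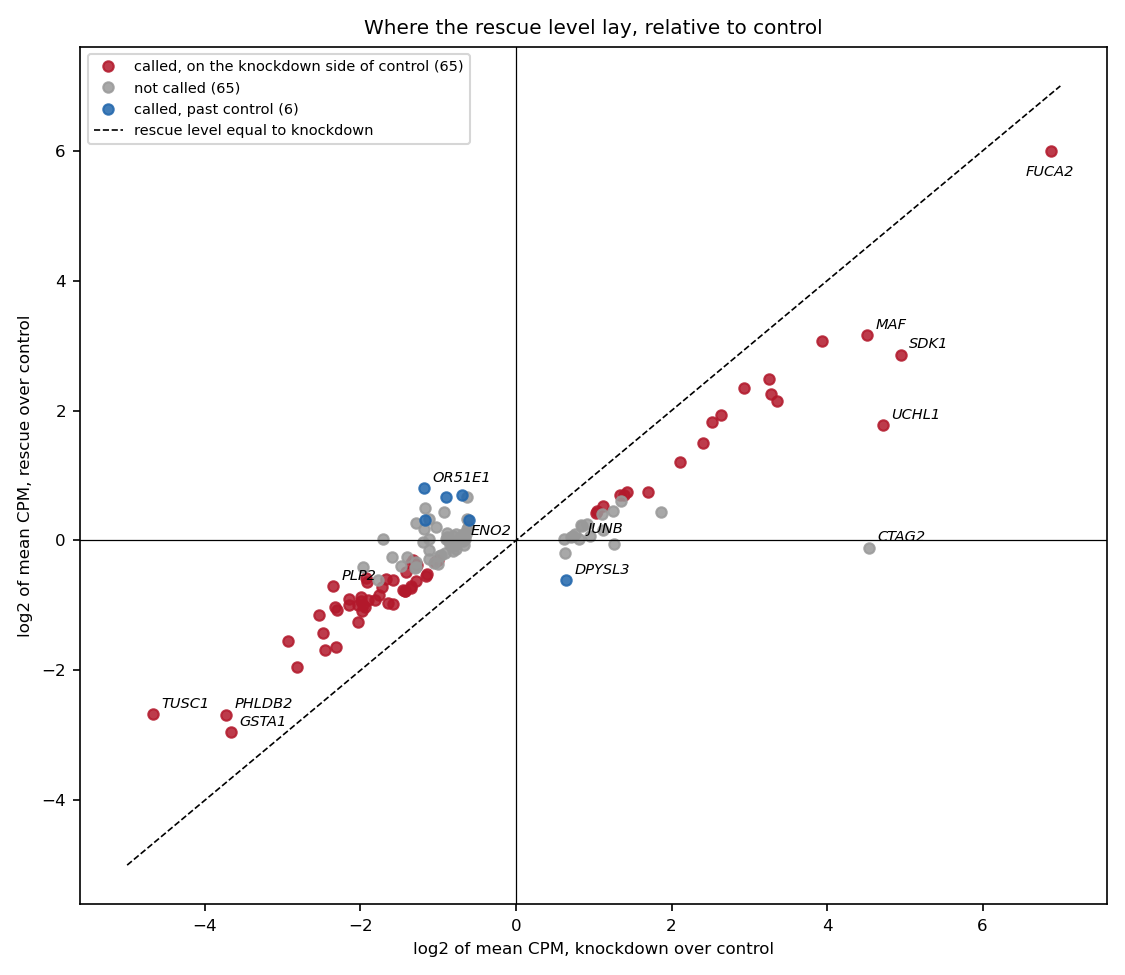
Each point is 1 of 136 members. The horizontal axis gives log2 of the ratio of mean CPM, knockdown over control, and the vertical axis the same for rescue over control; both share the control mean. The 65 red members were called on the knockdown side, the 65 grey ones were not called, and the 6 blue ones were called past control (a Y-linked member is left out). Points on the dashed line would have equal means in rescue and knockdown, and the rule kept members off it.

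Among the 5 transcription factors and germline genes higher in knockdown, MAF, HOXB6 and TEX19 were called above control in rescue and CTAG2 and JUNB were not called. CTAG2 (ENSG00000126890.13_2), a cancer-testis antigen whose gene lies on the X chromosome and is normally active in germ cells, had 0.394, 0.436 and 0.0756 CPM in rescue, against 7.11, 8.06 and 7.59 CPM in knockdown and 0.154, 0.186 and 0.638 CPM in control. The rescue and control libraries overlapped, and every knockdown library stood above both: the knockdown mean was 23.3 times that of control and 25.1 times that of rescue. Rescue did not pass the test against control (log2 fold change −0.10, SE 0.56, adjusted p = 0.912). The related CTAG1A had no counts in any library and CTAG1B had 1 count in all, in rescue replicate 1, though reads that fit several copies may have gone uncounted. 16 of 48 listed cancer-testis antigens could be tested; CTAG2 and DDX53 were the members among them, and the summed level of the list was 390 to 425 CPM in rescue, 377 to 407 CPM in knockdown and 376 to 453 CPM in control.

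MAF, a basic leucine zipper transcription factor listed among androgen-induced genes, had 2.41, 1.43 and 1.36 CPM in rescue, against 4.55, 3.53 and 5.19 CPM in knockdown and 0.115, 0.372 and 0.0912 CPM in control. All 3 rescue libraries lay between the other groups, with no overlap. MAF stayed higher in rescue than in control (log2 fold change 3.17, SE 0.46, adjusted p = 2.95e-06), and the estimate was 3.998 without control replicate 2. JUNB, an AP-1 subunit and immediate early gene, had 116, 126 and 110.1 CPM in rescue, against 163, 211 and 234 CPM in knockdown and 116, 101 and 128 CPM in control. Its rescue libraries sat within the control range (log2 fold change 0.04, SE 0.12, adjusted p = 0.831). HOXB6, a homeobox factor, averaged 2.07 ± 0.353 CPM in rescue, against 3.12 ± 0.253 in knockdown and 0.407 ± 0.329 in control, and stayed higher than control (log2 fold change 2.35, SE 0.43, adjusted p = 6.12e-05; 3.16 without control replicate 3). TEX19, a germ-cell gene, averaged 4.43 ± 0.947 CPM in rescue, against 7.15 ± 0.576 in knockdown and 2.65 ± 1.35 in control; its rescue and control libraries overlapped, and the call (log2 fold change 0.77, SE 0.29, adjusted p = 0.0366) was lost without rescue replicate 1 or 2 or without control replicate 1 or 2, with adjusted p of 0.0619 to 0.218.

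Of the 9 signalling regulators and secreted factors, 4 stayed higher than control and 5 did not pass the test. TFPI, the inhibitor of the tissue factor pathway of coagulation, had 73.9, 66.1 and 62.2 CPM in rescue, against 122, 127 and 131 CPM in knockdown and 30.3, 28.5 and 29.1 CPM in control. The 3 groups were separate, with rescue in the middle (log2 fold change 1.22, SE 0.08, adjusted p = 2.06e-12). NMB, the bombesin-like peptide neuromedin B, showed the same order: 22.6, 23.2 and 25.5 CPM in rescue, against 37.98, 47.4 and 48.04 CPM in knockdown and 6.42, 8.84 and 10.03 CPM in control. Its rescue level also stayed above control (log2 fold change 1.52, SE 0.14, adjusted p = 1.69e-09). PPP1R15A, the regulatory subunit that brings protein phosphatase 1 to the initiation factor eIF2α, had 55.8, 66.3 and 57.2 CPM in rescue, against 83.8, 95.99 and 93.6 CPM in knockdown and 41.1, 44.4 and 48.9 CPM in control; rescue stayed higher than control (log2 fold change 0.43, SE 0.10, adjusted p = 0.000602). STC1, the secreted hormone stanniocalcin 1, averaged 45.7 ± 5.64 CPM in rescue, against 71.02 ± 4.92 in knockdown and 28.1 ± 4.91 in control and stayed higher too (log2 fold change 0.71, SE 0.11, adjusted p = 7.18e-06).

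IRS1, the adaptor of the insulin and IGF receptors, had 3.45, 2.58 and 2.31 CPM in rescue, against 5.35, 5.38 and 5.47 CPM in knockdown and 1.88, 2.05 and 3.56 CPM in control. The knockdown libraries were close together, and rescue and control overlapped (log2 fold change 0.16, SE 0.27, adjusted p = 0.682). DUSP5, a phosphatase of nuclear ERK, averaged 10.3 ± 1.03 CPM in rescue, against 15.5 ± 2.78 in knockdown and 8.69 ± 0.602 in control (log2 fold change 0.26, SE 0.16, adjusted p = 0.22). BAMBI, a decoy receptor of the TGF-beta family, averaged 22.5 ± 2.74 CPM in rescue, against 34.7 ± 3.03 in knockdown and 19.2 ± 3.49 in control (log2 fold change 0.24, SE 0.13, adjusted p = 0.148). AKAP6, an anchor of protein kinase A, and IL15RA, a receptor chain for interleukin 15, covered 95.3% and 89.2% of the distance and were likewise not called (adjusted p = 0.861 and 0.781). A missed threshold does not show equal levels, as the SE for these 5 ran from 0.13 to 0.31.

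The 10 enzymes higher in knockdown divided evenly, with 5 called above control and 5 not called. UCHL1, a ubiquitin hydrolase abundant in neurons, had 0.6896, 0.754 and 0.416 CPM in rescue, against 5.74, 4.41 and 4.14 CPM in knockdown and 0.0385, 0.0931 and 0.4103 CPM in control. Knockdown stood far above both other groups, and rescue covered 90.4% of the distance, yet every rescue library was above every control library (log2 fold change 1.80, SE 0.56, adjusted p = 0.0118). That call rests on few counts: it was lost without control replicate 1 or 2 (adjusted p = 0.0754 and 0.0503), and the estimate was 3.20 without control replicate 3. FUCA2, a secreted fucosidase, had 22.02, 24.5 and 20.4 CPM in rescue, against 39.9, 37.4 and 45.6 CPM in knockdown and 0.308, 0.279 and 0.456 CPM in control. Its rescue level covered 45.9% of the distance and stayed far above the near-silent control (log2 fold change 6.01, SE 0.20, adjusted p = 1.47e-19). An uncharacterised transcript on the opposite strand (ENSG00000278206), which overlaps FUCA2, averaged 8.12 ± 1.25 CPM in rescue, 14.2 ± 1.80 in knockdown and 0.133 ± 0.053 in control, and how the counting used strand is not given in the sources used here.

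Cytochromes P450 were represented by 3 of these enzymes. CYP1A1, which oxidises aromatic hydrocarbons and is induced through the aryl hydrocarbon receptor, had 1.72, 0.754 and 1.17 CPM in rescue, against 3.098, 2.29 and 3.77 CPM in knockdown and 1.23, 1.16 and 1.41 CPM in control; the rescue libraries straddled those of control (log2 fold change −0.06, SE 0.36, adjusted p = 0.916). CYP4F8, a fatty acid and prostaglandin hydroxylase of the male reproductive tract, had 1.53, 1.51 and 2.42 CPM in rescue, against 4.17, 3.57 and 4.92 CPM in knockdown and 0.538, 0.559 and 0.137 CPM in control, with rescue between the other groups (log2 fold change 2.14, SE 0.40, adjusted p = 9.95e-05). Its neighbour on chromosome 19, CYP4F11, averaged 7.96 ± 1.69 CPM in rescue, against 14.1 ± 1.27 in knockdown and 9.08 ± 1.57 in control, and rescue did not differ detectably from control (log2 fold change −0.17, SE 0.17, adjusted p = 0.471). PAPSS2, which makes the sulfate donor for sulfation of steroids and other substrates, had 1.08, 1.79 and 1.78 CPM in rescue, against 4.17, 2.25 and 2.94 CPM in knockdown and 0.231, 0.372 and 0.365 CPM in control. It stayed higher than control (log2 fold change 2.29, SE 0.43, adjusted p = 9.58e-05). GPCPD1, a glycerophosphocholine phosphodiesterase, also stayed higher (log2 fold change 0.55, SE 0.11, adjusted p = 0.000272). The Golgi endomannosidase MANEA, its relative MANEAL and the lipoyl transferase LIPT1 were not called, at 97.4%, 92.9% and 77.8% of the distance.

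Of the 4 adhesion molecules, 3 were called above control, and so were 3 of the 4 ion transport and oxidase genes. SDK1, an immunoglobulin-family adhesion molecule of synapses, had 1.28, 1.35 and 1.97 CPM in rescue, against 7.08, 5.42 and 7.03 CPM in knockdown and 0.308, 0.233 and 0.0912 CPM in control. Rescue covered 79.02% of the distance and stayed higher (log2 fold change 2.83, SE 0.41, adjusted p = 2.08e-06). CDH26, a cadherin, averaged 12.5 ± 1.04 CPM in rescue, against 20.5 ± 1.48 in knockdown and 3.29 ± 0.662 in control (log2 fold change 1.95, SE 0.16, adjusted p = 1.10e-10), and NLGN4X, an X-linked neuroligin, averaged 19.1 ± 0.167 CPM in rescue, against 30.9 ± 6.29 in knockdown and 5.398 ± 1.12 in control (log2 fold change 1.83, SE 0.15, adjusted p = 1.51e-10). VSIG10L, an immunoglobulin-domain protein, was not called (adjusted p = 0.0776), except without control replicate 1 (adjusted p = 0.0199). ATP1B1, the β subunit of the sodium pump, had 38.1, 40.2 and 39.4 CPM in rescue, against 78.9, 65.8 and 82.5 CPM in knockdown and 23.6, 23.8 and 22.4 CPM in control, with 3 separate groups (log2 fold change 0.77, SE 0.09, adjusted p = 1.57e-07). KCNN2, a calcium-activated potassium channel, stayed higher too (log2 fold change 0.71, SE 0.15, adjusted p = 0.000333), while NOX5, a calcium-regulated NADPH oxidase, was not called (log2 fold change 0.41, SE 0.30, adjusted p = 0.294).

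The 6 higher members of the cytoskeleton, cilia and membrane traffic held 2 called above control, 3 not called and 1 called below it. RAB31, a small GTPase of endosomal traffic, had 10.2, 11.1 and 7.11 CPM in rescue, against 15.3, 18.3 and 15.03 CPM in knockdown and 2.15, 1.44 and 1.504 CPM in control and stayed higher (log2 fold change 2.48, SE 0.21, adjusted p = 1.96e-10). AFAP1L1, an actin-filament-associated protein, had 2.61, 2.58 and 2.95 CPM in rescue, against 6.66, 7.66 and 7.49 CPM in knockdown and 2.5, 2.28 and 1.23 CPM in control; every rescue library lay above every control library, but the difference did not pass the test (log2 fold change 0.45, SE 0.26, adjusted p = 0.186). DYNC2H1, the heavy chain of the ciliary dynein, stayed higher (log2 fold change 0.47, SE 0.15, adjusted p = 0.0119), a call lost without control replicate 2 (adjusted p = 0.0634). TTC28 was just over the threshold (log2 fold change 0.62, SE 0.25, adjusted p = 0.0504) and was called above control with the replicate block (adjusted p = 0.0367), RLE scaling (0.0488), DESeq2 (0.0495) and without rescue replicate 2 or knockdown replicate 1 or 2 (0.0403 to 0.0485). LRRC49 was not called (log2 fold change 0.08, SE 0.22, adjusted p = 0.817). DPYSL3, a collapsin response mediator of the axonal cytoskeleton, was the only higher member called below control: it had 5.81, 3.17 and 3.02 CPM in rescue, against 12.3, 7.902 and 8.37 CPM in knockdown and 5.96, 6.66 and 5.65 CPM in control (log2 fold change −0.61, SE 0.23, adjusted p = 0.0382). Its rescue replicate 1 overlapped the control libraries, and the call was lost without rescue replicate 2 or 3 or without control replicate 2 or 3, with adjusted p of 0.0538 to 0.198.

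**Figure D3:**
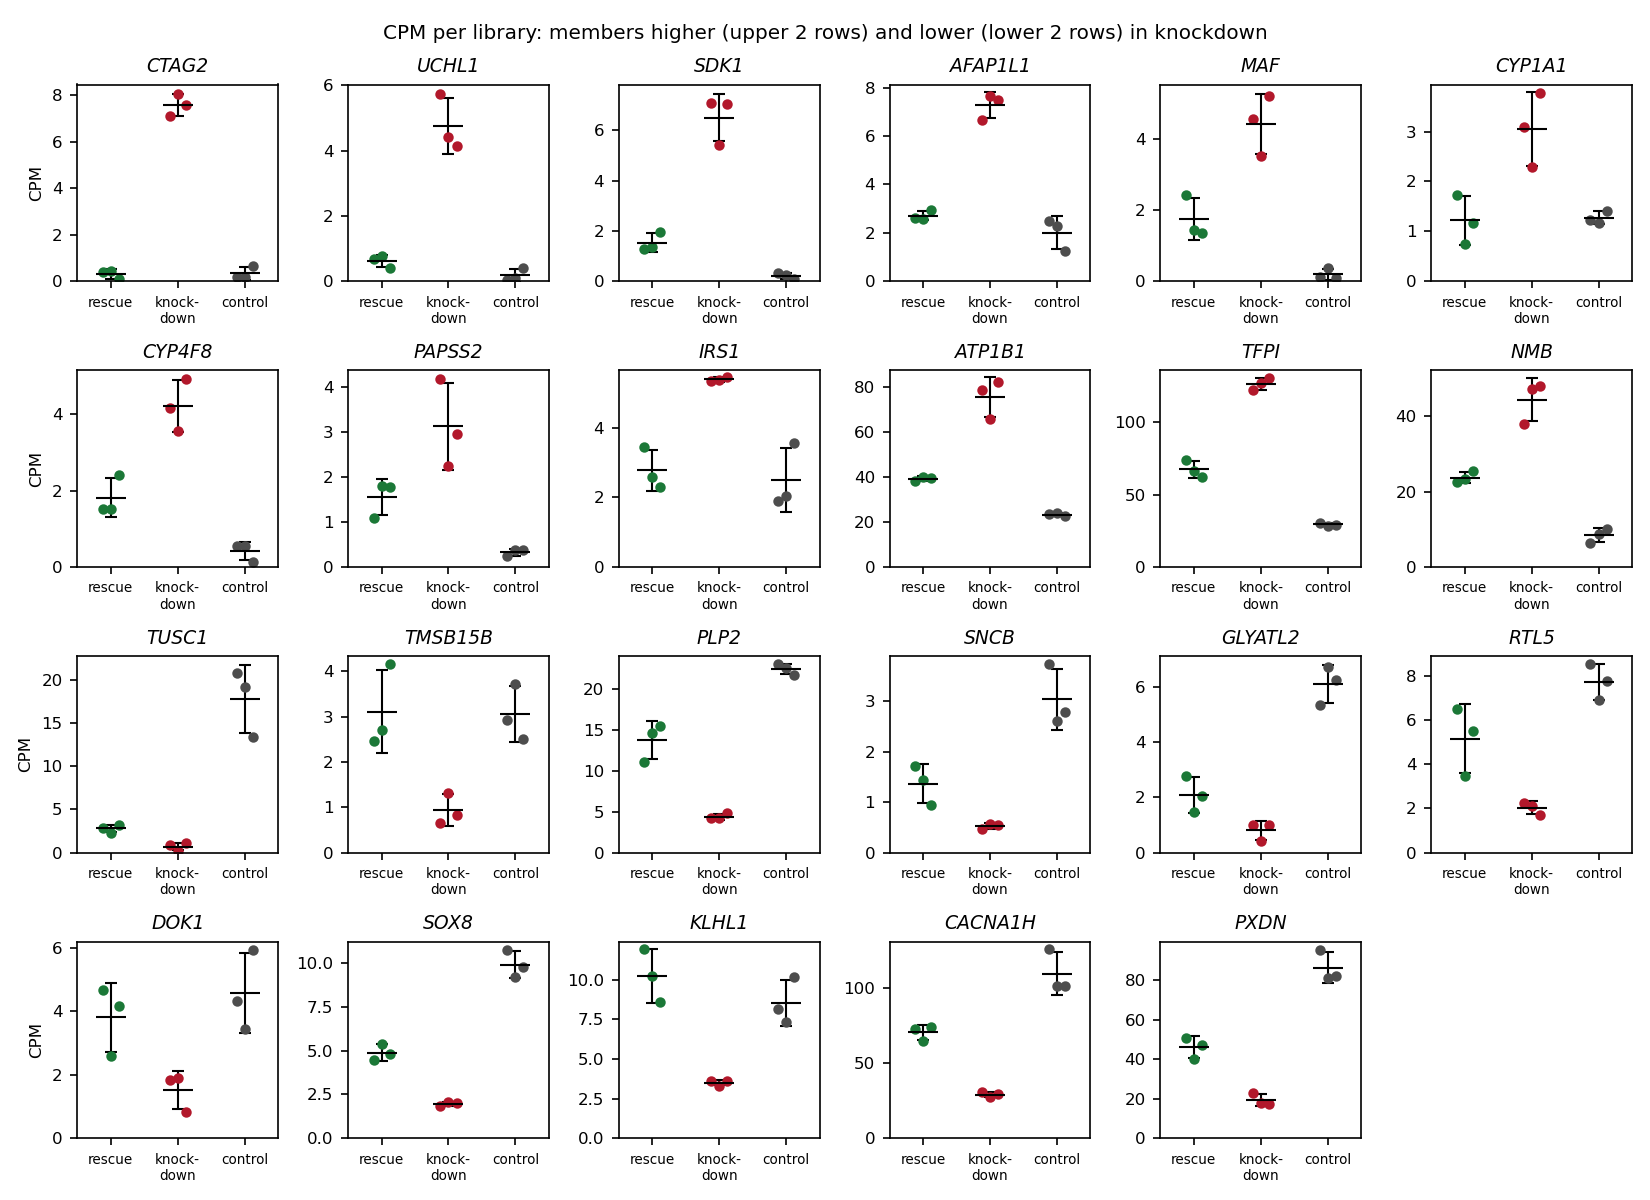
CPM in each library for the 12 members per direction with the largest fold against the nearer of the other groups, 1 lower member not shown. Each dot is a library, the bar is the mean and the whisker the SD over 3 libraries; each panel has its own linear axis from 0. In the upper rows, CTAG2 and CYP1A1 show rescue libraries that overlap those of control, and TFPI, NMB and ATP1B1 show rescue between knockdown and control. In the lower rows, TMSB15B and KLHL1 show a rescue mean at or above that of control, and TUSC1 shows rescue near knockdown.

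Promoter letters were read for 103 of the 137 members in RefSeq's table (GRCh38.p14), from 250 bases before the start to 50 after it. The hexamer TATAAA (or TTTATA, its reverse complement) was in 5 of 30 promoters of higher members (16.7%) and in 4 of 73 of lower members (5.5%), against 4.7% of the 8762 promoters of protein-coding genes at 3 CPM or more and 12% of all 27305. In the 5 higher members its first base lay between positions −32 and −29, where a TATA box is usually found: CYP1A1, JUNB, MAF, PPP1R15A and, on the other strand, UCHL1. The lower members CYP2E1, GLYATL2 and GSTA1 had it at −30 too, and KCNK1 had it at −161 on the other strand. The cyclic AMP response element TGACGTCA, a palindrome, was in 2 of the 30, MAF and PPP1R15A, and in 0 of 73, against 3.4% and 2.0% in the same backgrounds. The GC box GGGGCGGGG (or CCCCGCCCC) was in 20.0% of higher and 38.4% of lower members' promoters, against 29.4% and 16%, and CCAAT (or ATTGG) was in 40.0% and 24.7%, against 36.8% and 35.7%. AGAACA (or TGTTCT), the core letters of androgen response elements, was in 10% and 11%, against 8.4% and 14.9%, and TGACTCA (or TGAGTCA), bound by AP-1, in 3.3% and 1.4%, against 2.6% and 4.9%. CACGTG, the E-box, was in 6.7% and 2.7%, against 10.7% and 7.4%. CCGGAAGT (or ACTTCCGG), the ETS site, was in 0.0% and 2.7%, against 9.4% and 4.4%, and GCGCATGC (or GCATGCGC), the NRF1 core, in 0.0% and 2.7%, against 5.8% and 3.3%. These letter matches are descriptions over few promoters and are not shown to be bound sites. The ratio of observed to expected CpG was under 0.4 in 36.7% of higher and 21.9% of lower members, against 8.4% of the promoters at 3 CPM or more and 41.0% of all 27305.

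The 4 higher members with TATAAA on the gene's own strand are shown 5′ to 3′, followed by the lower members GSTA1, which also has it, and PLP2, which has a GC box further upstream and no TATAAA. Capitals mark the letters of the TATA box, the response element, the CCAAT box on either strand and the GC box. The regions are PPP1R15A (chr19:48872171-48872470, plus strand), MAF (chr16:79600688-79600987, minus strand), JUNB (chr19:12791236-12791535, plus strand), CYP1A1 (chr15:74725479-74725778, minus strand), GSTA1 (chr6:52803767-52804066, minus strand) and PLP2 (chrX:49171648-49171947, plus strand).
PPP1R15A: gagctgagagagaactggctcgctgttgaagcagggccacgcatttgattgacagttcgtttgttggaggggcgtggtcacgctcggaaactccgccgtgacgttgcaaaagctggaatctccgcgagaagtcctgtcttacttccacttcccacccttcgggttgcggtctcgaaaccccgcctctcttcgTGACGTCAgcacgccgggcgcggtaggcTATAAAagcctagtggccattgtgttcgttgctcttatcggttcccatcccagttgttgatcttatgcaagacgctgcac
MAF: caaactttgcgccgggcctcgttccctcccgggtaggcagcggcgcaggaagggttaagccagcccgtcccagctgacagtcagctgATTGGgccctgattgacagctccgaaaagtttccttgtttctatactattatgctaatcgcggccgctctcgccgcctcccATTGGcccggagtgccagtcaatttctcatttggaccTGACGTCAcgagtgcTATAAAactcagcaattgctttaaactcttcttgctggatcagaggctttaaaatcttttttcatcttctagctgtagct
JUNB: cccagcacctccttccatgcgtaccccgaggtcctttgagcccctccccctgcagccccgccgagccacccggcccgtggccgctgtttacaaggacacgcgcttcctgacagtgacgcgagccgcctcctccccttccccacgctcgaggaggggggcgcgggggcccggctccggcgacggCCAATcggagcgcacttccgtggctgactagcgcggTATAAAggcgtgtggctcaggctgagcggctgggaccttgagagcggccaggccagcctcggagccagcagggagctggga
CYP1A1: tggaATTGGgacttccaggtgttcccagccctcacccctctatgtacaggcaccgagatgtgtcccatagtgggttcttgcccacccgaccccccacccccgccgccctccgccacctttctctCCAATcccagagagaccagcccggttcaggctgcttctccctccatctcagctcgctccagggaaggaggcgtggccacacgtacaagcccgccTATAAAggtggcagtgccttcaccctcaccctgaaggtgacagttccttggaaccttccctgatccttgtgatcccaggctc
GSTA1: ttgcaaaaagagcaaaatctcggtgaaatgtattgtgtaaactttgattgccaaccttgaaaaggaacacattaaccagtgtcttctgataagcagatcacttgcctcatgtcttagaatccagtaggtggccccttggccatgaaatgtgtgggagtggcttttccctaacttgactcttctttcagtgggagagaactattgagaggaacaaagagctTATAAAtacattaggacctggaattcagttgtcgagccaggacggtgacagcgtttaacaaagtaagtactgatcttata
PLP2: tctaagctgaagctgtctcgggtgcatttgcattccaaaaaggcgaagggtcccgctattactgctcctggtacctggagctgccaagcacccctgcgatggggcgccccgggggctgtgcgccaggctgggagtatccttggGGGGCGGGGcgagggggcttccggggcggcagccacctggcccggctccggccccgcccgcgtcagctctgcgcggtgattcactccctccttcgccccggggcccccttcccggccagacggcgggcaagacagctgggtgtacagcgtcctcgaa

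Of the 16 enzymes lower in knockdown, 7 stayed lower than control and 9 were not called. GLYATL2, a glycine N-acyltransferase, had 2.76, 1.47 and 2.04 CPM in rescue, against 0.994, 0.401 and 1.01 CPM in knockdown and 5.35, 6.703 and 6.25 CPM in control. It stayed lower than control (log2 fold change −1.54, SE 0.29, adjusted p = 9.89e-05). GSTA1, a glutathione transferase of detoxification, had 7.09, 5.24 and 5.59 CPM in rescue, against 3.75, 3.17 and 4.05 CPM in knockdown and 36.1, 51.8 and 50.4 CPM in control, so rescue libraries were separate from knockdown but far from control (log2 fold change −2.94, SE 0.15, adjusted p = 4.37e-15). NAALAD2, a dipeptidase related to the prostate membrane antigen, had 1.87, 2.58 and 1.66 CPM in rescue, against 0.994, 1.36 and 1.24 CPM in knockdown and 7.73, 6.05 and 5.93 CPM in control and also stayed lower (log2 fold change −1.67, SE 0.26, adjusted p = 7.18e-06).

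DHRS3, which reduces retinal, averaged 25.7 ± 2.49 CPM in rescue, against 12.3 ± 0.982 in knockdown and 69.2 ± 2.98 in control (log2 fold change −1.41, SE 0.10, adjusted p = 3.26e-12). SCCPDH, a putative dehydrogenase, stayed lower (log2 fold change −0.97, SE 0.13, adjusted p = 5.75e-07), as did ACP3, the prostatic acid phosphatase, at 6.16 ± 0.566 CPM in rescue, against 3.08 ± 0.3398 in knockdown and 10.1 ± 1.75 in control (log2 fold change −0.71, SE 0.18, adjusted p = 0.00311). ABAT, the transaminase that breaks down GABA, stayed lower by a smaller step (log2 fold change −0.29, SE 0.11, adjusted p = 0.0313), a call lost without rescue replicate 2 or 3 or without control replicate 1 or 3 (adjusted p of 0.0773 to 0.174). ENO2, a glycolytic enolase also used as a neuroendocrine marker, had 1171, 1136 and 1193 CPM in rescue, against 736, 778 and 685 CPM in knockdown and 1126, 1211 and 1198 CPM in control. Rescue and control overlapped (log2 fold change 0.0002, SE 0.08, adjusted p = 0.999). Of the other neuroendocrine markers, CHGB and NEUROD1 had no counts in any library. CHGA averaged 0.0164 CPM in rescue, 0 in knockdown and 0.0688 in control. INSM1 averaged 0.101 CPM in rescue and 0 in knockdown and in control. SYP averaged 1.40 CPM in rescue, 1.04 in knockdown and 0.651 in control, so unlike ENO2 it was not lowest in knockdown. CYP2E1, a cytochrome P450 of ethanol oxidation, averaged 3.53 ± 0.4304 CPM in rescue, against 1.43 ± 0.129 in knockdown and 2.22 ± 0.555 in control, above control in the mean but not called (log2 fold change 0.68, SE 0.28, adjusted p = 0.0611), except without control replicate 1 (adjusted p = 0.0365). Further members, HGD, CHDH, TREH, GCNT2, TXNDC5 and UBA7, covered 71.3% to 124% and were not called.

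Secreted and matrix proteins covered a median of 48.1% of the distance, and 7 of 13 stayed lower than control. PXDN, a peroxidase that cross-links collagen of basement membranes, had 50.9, 39.99 and 47.2 CPM in rescue, against 23.1, 17.9 and 17.2 CPM in knockdown and 95.4, 81.3 and 82.2 CPM in control. The groups were separate, with rescue between (log2 fold change −0.89, SE 0.10, adjusted p = 5.40e-08). FBLN7, a fibulin, had 1.33, 1.55 and 1.32 CPM in rescue, against 1.07, 0.441 and 0.781 CPM in knockdown and 4.999, 5.63 and 5.52 CPM in control; it stayed lower (log2 fold change −1.92, SE 0.30, adjusted p = 6.59e-06). LUZP2 averaged 40.9 ± 3.45 CPM in rescue, against 25.4 ± 1.53 in knockdown and 69.3 ± 4.902 in control (log2 fold change −0.75, SE 0.09, adjusted p = 1.50e-07), and C1S, a protease of the classical complement pathway, 1.93 ± 0.495 CPM in rescue, against 1.13 ± 0.1799 in knockdown and 4.61 ± 0.833 in control (log2 fold change −1.23, SE 0.29, adjusted p = 0.00102). MXRA7, COL26A1 and TNXB also stayed lower, at −0.89, −0.97 and −0.59 on the log2 scale (adjusted p = 0.00215, 0.0103 and 0.0173), the last not without rescue replicate 1 or 2 or control replicate 1 (adjusted p of 0.0844 to 0.197). TIMP2, an inhibitor of matrix metalloproteinases, averaged 60.8 ± 3.12 CPM in rescue, against 32.2 ± 2.12 in knockdown and 59.96 ± 4.39 in control and was not called (log2 fold change 0.03, SE 0.09, adjusted p = 0.801). The ligands PDGFA, WNT9A and NPB and the matrix-associated SMOC2 and CRISPLD2 were not called either, with differences from −0.38 for NPB to 0.52 for SMOC2.

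Among 20 members of adhesion, junctions and the cytoskeleton, 13 were not called against control and 7 stayed lower. TMSB15B, a thymosin that binds actin monomers, had 2.46, 2.698 and 4.16 CPM in rescue, against 0.6502, 1.32 and 0.828 CPM in knockdown and 2.92, 3.72 and 2.51 CPM in control, with rescue and control overlapping (log2 fold change 0.05, SE 0.31, adjusted p = 0.926). KLHL1, an actin-binding kelch protein, had 11.97, 10.2 and 8.58 CPM in rescue, against 3.63, 3.33 and 3.59 CPM in knockdown and 8.15, 7.31 and 10.2 CPM in control and was not called (log2 fold change 0.28, SE 0.18, adjusted p = 0.238). PHLDB2, which anchors cortical microtubules near adhesions, had 0.788, 1.03 and 1.06 CPM in rescue, against 0.459, 0.201 and 0.736 CPM in knockdown and 7.499, 5.63 and 5.33 CPM in control. Its rescue libraries were just above knockdown and far under control (log2 fold change −2.65, SE 0.32, adjusted p = 1.52e-07). ITGB4, the β4 integrin of hemidesmosomes, averaged 6.26 ± 1.197 CPM in rescue, against 3.93 ± 1.06 in knockdown and 19.6 ± 4.43 in control (log2 fold change −1.63, SE 0.19, adjusted p = 1.10e-07). L1CAM, a neural adhesion molecule, TUBB4A, a β-tubulin, and AMOTL2, an angiomotin that binds YAP, stayed lower by −0.97, −1.07 and −0.86 on the log2 scale (adjusted p = 9.05e-06, 6.41e-05 and 0.000127). EPPK1, a plakin of keratin networks, and PTK7, a receptor of planar cell polarity, completed the 7 (adjusted p = 0.0108 and 1.78e-05). The other 11 not called were SYDE1, MCF2L, TSPAN4, PCDHB14, PCDHGB5, TCAP, SORBS2, LRRC1, ARHGEF25, TNS4 and CFAP53, with differences from −0.41 to 0.22. The PCDHGB5 model overlaps others of its protocadherin cluster, so reads that fit several of them may have gone uncounted as ambiguous.

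Receptors and signalling genes numbered 19: 7 stayed lower, 10 were not called and 2 lay above control. OR51E1, an olfactory receptor known from prostate, had 11.6, 9.92 and 10.5 CPM in rescue, against 2.26, 2.81 and 2.99 CPM in knockdown and 5.499, 5.59 and 7.25 CPM in control. Every rescue library was above every control library (log2 fold change 0.82, SE 0.19, adjusted p = 0.0008). GPRIN2, a partner of G protein α subunits, averaged 7.81 ± 1.82 CPM in rescue, against 2.96 ± 0.996 in knockdown and 4.803 ± 0.209 in control (log2 fold change 0.71, SE 0.22, adjusted p = 0.0126), a call lost without rescue replicate 1 or 3 (adjusted p = 0.059 and 0.0722). SMO, the transducer of hedgehog signals, averaged 9.503 ± 1.19 CPM in rescue, against 5.93 ± 0.849 in knockdown and 18.5 ± 0.432 in control (log2 fold change −0.95, SE 0.15, adjusted p = 9.04e-06). FGFR1, a fibroblast growth factor receptor, averaged 23.4 ± 2.8 CPM in rescue, against 12.6 ± 0.3102 in knockdown and 30.3 ± 1.46 in control (log2 fold change −0.36, SE 0.11, adjusted p = 0.0107); its call was lost without rescue replicate 2 (adjusted p = 0.0891). IL4R, SBK1, DPYSL5, GNG13 and WNK2 also stayed lower, at −0.76, −0.82, −0.72, −0.61 and −0.29 (adjusted p = 0.00811, 9.04e-08, 0.000515, 0.0272 and 0.0313). Of these, IL4R was lost without rescue replicate 3 (adjusted p = 0.0527), GNG13 without rescue replicate 1 or 3 or control replicate 2 (0.0628 to 0.155), and WNK2 without rescue replicate 2 or 3 or control replicate 1 (0.0882 to 0.304).

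DOK1, a docking protein that dampens tyrosine kinase signals, had 4.68, 2.58 and 4.16 CPM in rescue, against 1.84, 1.89 and 0.828 CPM in knockdown and 4.31, 3.44 and 5.93 CPM in control; rescue and control overlapped (log2 fold change −0.25, SE 0.29, adjusted p = 0.536). INPP4B, a phosphatase of phosphoinositides, averaged 6.83 ± 1.14 CPM in rescue, against 2.66 ± 0.725 in knockdown and 5.04 ± 0.8 in control, higher than control in the mean but not called (log2 fold change 0.46, SE 0.22, adjusted p = 0.111). The G protein subunit GNAQ and its effector PLCB1 covered 68.5% and 58.2% and were not called (adjusted p = 0.312 and 0.101). KSR1, PLEKHA2, CD302, RGS19, RIMS3 and PAQR6 were not called, with differences from −0.33 to 0.34.

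Of 6 members of channels, transport and trafficking, 4 stayed lower than control. CACNA1H, a T-type calcium channel, had 72.4, 64.4 and 73.9 CPM in rescue, against 30.4, 27.4 and 29.3 CPM in knockdown and 126, 101 and 101 CPM in control and 3 separate groups (log2 fold change −0.62, SE 0.09, adjusted p = 1.24e-06). ZDHHC8, a palmitoyltransferase, averaged 21.3 ± 2.25 CPM in rescue, against 10.8 ± 1.67 in knockdown and 40.1 ± 2.18 in control (log2 fold change −0.90, SE 0.12, adjusted p = 3.95e-07). KCNQ1 and TMEM38A stayed lower at −0.32 and −0.51 (adjusted p = 0.026 and 0.0433), but KCNQ1 was lost without rescue replicate 2 or 3 or control replicate 1 or 3 (adjusted p of 0.058 to 0.143) and TMEM38A without any rescue replicate or without control replicate 2 or 3 (0.0598 to 0.18). The potassium channel KCNK1 averaged 66.2 ± 1.85 CPM in rescue, against 38.7 ± 4.003 in knockdown and 61.98 ± 3.18 in control, and was not called (log2 fold change 0.11, SE 0.09, adjusted p = 0.371). The COPII coat protein SEC24D averaged 111 ± 1.91 CPM in rescue, against 69.4 ± 8.46 in knockdown and 109 ± 1.84 in control, and was not called either (log2 fold change 0.04, SE 0.08, adjusted p = 0.725).

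The 10 transcription and RNA-binding members divided evenly. SOX8, an SRY-box factor and the neighbour of CACNA1H on chromosome 16, had 4.48, 5.396 and 4.8 CPM in rescue, against 1.84, 2.05 and 2.02 CPM in knockdown and 10.8, 9.22 and 9.76 CPM in control, with rescue between (log2 fold change −1.0, SE 0.19, adjusted p = 0.000103). OSR2, ZFPM2, ZC4H2 and TRPS1 stayed lower too, at −0.76, −0.92, −0.58 and −0.47 (adjusted p = 0.00835, 0.0118, 0.0225 and 0.0341), and each of these 4 lost its call without at least 1 library. Those libraries were control replicate 1 for OSR2 (adjusted p = 0.105), rescue or control replicate 3 for ZFPM2 (0.0563 and 0.0884), rescue or control replicate 2 for ZC4H2 (0.0813 and 0.127), and rescue replicate 2 or control replicate 1 or 3 for TRPS1 (0.065 to 0.173). MYCL, a MYC-family factor, averaged 6.55 ± 0.735 CPM in rescue, against 3.84 ± 0.979 in knockdown and 6.59 ± 0.765 in control (log2 fold change 0.0045, SE 0.21, adjusted p = 0.989). ZIK1, BEND4 and INTS6L were not called. LARP6, which binds collagen mRNAs, was near the threshold (log2 fold change −0.32, SE 0.13, adjusted p = 0.051); it was called below control with the replicate block (adjusted p = 0.0466), with limma voom (0.0405), with rescue and control libraries alone (0.0454) and without rescue, knockdown or control replicate 1 (0.0123 to 0.0395). It overlaps LRRC49 on the opposite strand, and LARP6 was lower in knockdown while LRRC49 was higher.

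The 15 other and less characterised lower members held 8 that stayed lower than control, 3 not called and 4 past it. TUSC1, an intronless tumour suppressor candidate, had 2.86, 2.301 and 3.21 CPM in rescue, against 0.842, 0.201 and 1.06 CPM in knockdown and 20.8, 19.1 and 13.4 CPM in control. Rescue covered 12.2% of the distance and stayed lower (log2 fold change −2.66, SE 0.25, adjusted p = 6.52e-09). PLP2, a membrane proteolipid of the MARVEL family, had 11.1, 14.7 and 15.5 CPM in rescue, against 4.17, 4.21 and 4.83 CPM in knockdown and 23.03, 22.5 and 21.7 CPM in control, with rescue between (log2 fold change −0.69, SE 0.14, adjusted p = 0.0002). SNCB, β-synuclein, had 1.72, 1.43 and 0.945 CPM in rescue, against 0.459, 0.562 and 0.552 CPM in knockdown and 3.73, 2.61 and 2.78 CPM in control and stayed lower (log2 fold change −1.15, SE 0.35, adjusted p = 0.0099), though not without rescue replicate 3 or control replicate 1 (adjusted p = 0.0617 and 0.0684). RTL5, a gene derived from a retrotransposon Gag, had 6.502, 3.45 and 5.52 CPM in rescue, against 2.26, 2.13 and 1.701 CPM in knockdown and 8.54, 6.89 and 7.75 CPM in control (log2 fold change −0.58, SE 0.22, adjusted p = 0.0403); this call was lost without rescue replicate 2 or 3 or control replicate 1 or 3 (adjusted p of 0.065 to 0.257). DDX53, an X-linked cancer-testis helicase, averaged 6.196 ± 1.35 CPM in rescue, against 3.29 ± 0.876 in knockdown and 12.6 ± 2.09 in control (log2 fold change −1.01, SE 0.20, adjusted p = 0.000192). APOBEC3F, EVA1B and FAM219A stayed lower too, at −1.05, −0.97 and −0.34 (adjusted p = 0.00757, 0.000188 and 0.00911).

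APLP1, an amyloid precursor-like protein, averaged 116 ± 3.86 CPM in rescue, against 61.1 ± 8.74 in knockdown and 93.02 ± 6.15 in control (log2 fold change 0.33, SE 0.09, adjusted p = 0.00404), and MEST, an imprinted gene expressed from the paternal copy, averaged 23.3 ± 1.17 CPM in rescue, against 8.32 ± 0.7503 in knockdown and 18.7 ± 1.87 in control (log2 fold change 0.33, SE 0.12, adjusted p = 0.0318). The MEST call was lost without rescue replicate 1 or 2 or control replicate 1 or 3 (adjusted p of 0.0854 to 0.131). CRYAB, a small heat shock protein, was not called (log2 fold change −0.0015, SE 0.20, adjusted p = 0.997), and neither were TMEM255B and SH3BGRL2. A further member past control is Y-linked and is not described.

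**Figure D4:**
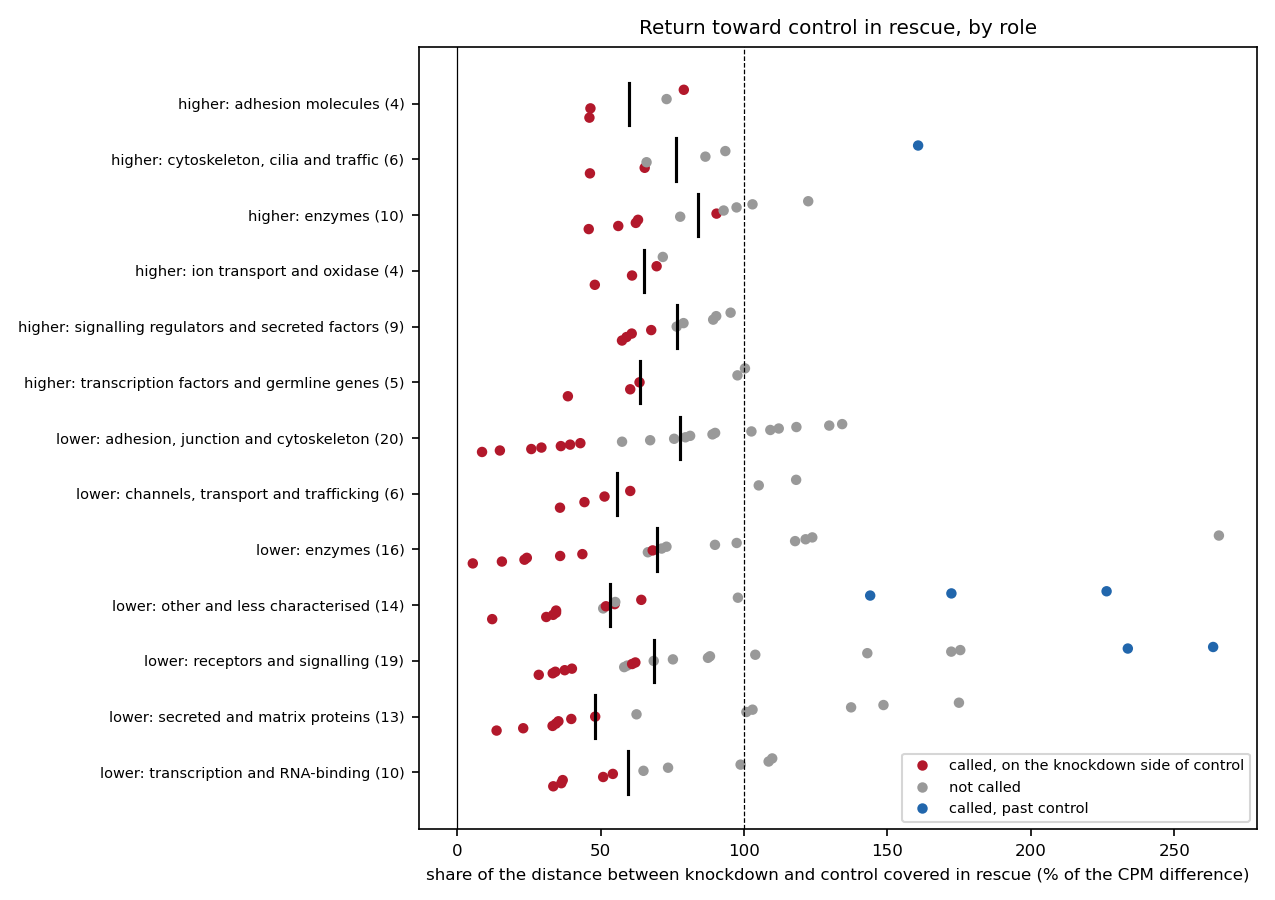
Share of the distance between the knockdown and control means that rescue covered, in percent of the CPM difference, for 136 members by direction and role (numbers in brackets). Each dot is a gene, coloured by its call in rescue against control, the thick bar is the median of the role, and the dashed line at 100% marks the control mean. GSTA1 lies lowest, at 5.47%, and CYP2E1 highest, at 266%; members on the knockdown side occur in every role.

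The edge of the rule shows how narrow the choice was for some genes. Just inside it were HOXB6, GPCPD1 and DUSP5, whose fold against the nearer group was 1.505, 1.506 and 1.508, and PAQR6, L1CAM and APLP1, at 1.511, 1.514 and 1.521. Just outside it were RAD51B, CFD and CEBPD, at 1.494, 1.49 and 1.485, and JAG1, MAGEE1 and DOK4, at 1.499, 1.497 and 1.488. Many members were also low: in 27 of 137, only the highest group reached 3 CPM.

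What else the members shared was limited. On the X chromosome lay 9 of 137 members (6.57%), among them CTAG2, NLGN4X, TMSB15B, PLP2, RTL5, DDX53, L1CAM, ZC4H2 and INTS6L, against 3.36% of the 10713 genes. Only 3 pairs of members were neighbours: LARP6 with LRRC49, SOX8 with CACNA1H, and CYP4F8 with CYP4F11. Gene models at 1 CPM or more overlapped 48 members, 41 of them on the opposite strand, and for FUCA2, TFPI, MEST, PLEKHA2 and TIMP2 an opposite-strand transcript met the same values in the same direction. CALCRL-AS1, the partner of TFPI, averaged 10.3 ± 0.231 CPM in rescue, 18.1 ± 1.67 in knockdown and 4.60 ± 0.199 in control. Without the strand setting, reads of these pairs cannot be told apart.

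The pathway lists set beside the members held 0 to 2 of them each, and members were 137 of the 10713 genes at the minimum level. With so few listed genes, neither an excess nor a lack of members is read from this. Of 27 androgen-induced genes tested, MAF was the only member. In rescue, 20 were higher and 2 lower than in control, with a median log2 fold change of 1.04 against −0.003 over all genes. Knockdown cells already had 20 of the 27 above control and 0 below it (median 0.84). From knockdown to rescue, 8 rose and 4 fell (median 0.043). Of 31 interferon-stimulated genes tested, 0 were members, and 13 were higher and 3 lower in rescue than in control (median 0.38). Knockdown had 10 of these above control and 5 below it (median 0.37). From knockdown to rescue, 4 rose and 0 fell (median 0.14). Of 13 Gag-derived genes tested, RTL5 was the member, with 1 higher and 6 lower in rescue than in control (median −0.17). Of 21 MARVEL-family genes, PLP2 was the member, with 9 higher and 7 lower in rescue than in control (median 0.04). Of the 16 cancer-testis antigens, 3 were higher and 3 lower in rescue than in control (median 0.06). Over all genes tested 19.0% were called higher and 18.8% lower in rescue than in control. In knockdown against control 16.5% were called higher and 15.6% lower, and in rescue against knockdown 5.2% higher and 4.88% lower. All counts of list genes that were higher, lower, above, below, rose or fell are calls of the same edgeR test.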

How the data were processed

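Total RNA of 9 LNCaP libraries was sequenced. The authors deposited unnormalized read counts, 1 table per library, made with FastQC, cutadapt, HISAT2 and HTSeq on hg19 per the submitters' processing notes; neither versions nor the strand setting of the counting are stated there. The summary rows for reads in no gene (48.83% to 50.71%), ambiguous (2.26% to 2.67%) and not uniquely aligned (5.26% to 7.62%) were left out. CPM is the count over the library's sum of gene rows, scaled to counts per 1000000, and is given as mean ± SD (n = 3). Symbols were matched by identifier: 56414 in the symbol table, 444 in GENCODE v29 only, 4022 in neither; gene types and overlaps come from GENCODE v29.

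Rescue was tested against control in R 4.3.3 with edgeR 4.0.16: filterByExpr (minimum count 10; 18389 genes), TMM, a robust quasi-likelihood fit of 3 group means to the 9 libraries (leaving 6 degrees of freedom), glmQLFTest, Benjamini-Hochberg adjustment over all genes, called under 0.05. Every adjusted p of a gene in the text is from this test, unless another setting is named. The same fit gave the calls over all genes and in the pathway lists for knockdown against control and rescue against knockdown. The SE divides the size of the log2 fold change by the root of the quasi-likelihood F. The code was checked on simulated counts. The members and lists were chosen with earlier results of these data known. Values per library are given for the 12 members per direction with the largest smaller fold and the 5 per direction with the largest called difference from control; other members so given (such as JUNB, PPP1R15A, ENO2, OR51E1 and DPYSL3) were chosen after their values were seen. A few of these genes are not reported here. Alternatives were RLE scaling, no filter, DESeq2 1.42.0, limma 3.58.1 voom, rescue and control libraries alone, a replicate block, other limits of the rule, and each library left out.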

Additional observations from a re-analysis of the deposited data

How the results depend on the processing

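The count of members called in rescue against control, 72 in the main test, was 73 with RLE scaling, DESeq2 or limma voom, 69 with no filter and 70 with rescue and control libraries alone, where 2 members were not tested. Leaving out 1 library gave 61 to 74 called members: 18 to 21 higher members above control, 36 to 46 lower members below it, and 5 to 7 past control. Of the 72, 52 kept their call in every such fit and 20 lost it in at least 1; no called member changed sign. Without the filter GNG13, MEST and TMEM38A lost their calls, and with rescue and control libraries alone DPYSL3 and TEX19 did. Over all genes the calls ran from 5809 to 6995 in rescue against control, from 4858 to 5788 in knockdown against control (5899 with all libraries), and from 1196 (without rescue replicate 1) to 2363 in rescue against knockdown (1854 with all libraries); the cause was not tested.

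Membership depends on the limits. A fold limit of 2 left 42 members (8 higher, 34 lower), a minimum of 1 CPM gave 210 (65 higher), a minimum of 10 CPM left 72 (19 higher, 53 lower), by construction, and TMM-adjusted library sizes gave 138, of which 129 were among the 137. Leaving out 1 library gave 135 to 179 members (35 to 53 higher, 94 to 135 lower), with 119 to 135 of the 137 kept.

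Of the 65 members not called, 7 gained a call without 1 library (BAMBI, CYP2E1, LARP6, PLCB1, SH3BGRL2, TTC28 and VSIG10L). Leaving out 1 library changed the sign of 26 of the 137 estimates, of which 0 were called; the largest of these was −0.41, for PCDHB14. Among the members named by rule, those that changed sign ran from −0.53 to 0.81 for CTAG2, from −0.38 to 0.19 for CYP1A1, from −0.0191 to 0.51 for IRS1, and from −0.21 to 0.22 for TMSB15B.

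With the replicate number as a block, 74 members were called. Deviations of same-numbered libraries correlated at −0.023 to 0.135 (9 pairs), those of other pairs at −0.129 to 0.119 (18 pairs). These ranges overlapped, which does not exclude a pairing by number, and the main test used none. At 3 replicates, small differences from control in members of few counts were not detectable.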

Other observations

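Beside the protein-coding members, 39 gene rows of other types met the same values, 23 higher and 16 lower in knockdown. Antisense transcripts were the most frequent annotated type in both directions, with 6 higher and 8 lower. Their share among all rows of other types was not computed, so nothing is read from these counts. Some of them, such as CALCRL-AS1 opposite TFPI, overlap a member. Without the strand setting, reads of such a pair cannot be told apart. The genes named here were chosen after their values were seen. SNHG12, the host transcript of several small nucleolar RNAs, averaged 15.2 ± 2.23 CPM in rescue, 28.4 ± 3.66 in knockdown and 13.7 ± 2.42 in control (SD, n = 3), and its rescue and control libraries overlapped (log2 fold change 0.16, SE 0.14, adjusted p = 0.402 in edgeR). SOCS2-AS1, the antisense neighbour of SOCS2, averaged 2.18 ± 0.151 CPM in rescue, 4.46 ± 0.373 in knockdown and 1.29 ± 0.213 in control, and stayed higher in rescue than in control (0.77, SE 0.29, adjusted p = 0.0351). CEROX1, a long noncoding RNA, averaged 6.09 ± 1.28 CPM in rescue, 2.44 ± 0.582 in knockdown and 7.95 ± 1.25 in control (−0.37, SE 0.21, adjusted p = 0.176).

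A pseudogene, TUFMP1, which is not a member, shows what the values of the rule admit at low counts. It had 1, 4 and 2 counts in rescue, against 1, 0 and 0 in knockdown and 145, 136 and 137 in control. Rescue therefore counted as above knockdown while covering 1.35% of the distance to control, from which it stayed far (log2 fold change −5.87, SE 0.46, adjusted p = 2.38e-11 in edgeR).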
